A study of Mus musculus with 2 samples.

Results

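Lymphatic endothelial cells line the vessels that drain fluid, immune cells and absorbed lipid from a tissue. In the single-nucleus RNA-seq (snRNA-seq) of epididymal white adipose tissue (WAT) described here, they were taken as the nuclei in which the summed counts of Prox1, Mmrn1, Reln and Flt4 reached at least 0.3% of the nucleus's unique molecular identifiers (UMIs, each standing for 1 captured RNA molecule) and at least 4 UMIs. A barcode was kept with at least 500 UMIs, more than 400 genes and mitochondrial UMIs under 0.5%. Of 16477 kept barcodes, 212 met the rule, namely 49 among 8618 for HF-PBS and 163 among 7859 for HF-HHT. Since the members were chosen by the counts of these 4 genes, the values of the 4 genes describe the choice and support nothing. Nuclei of blood endothelium, the cell class most like them, served for comparison: their summed Ptprb, Cyyr1, Flt1 and Emcn counts passed the same limits and they held no UMI of the 4 lymphatic genes, which left 35 HF-PBS and 142 HF-HHT nuclei.

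The mice were male and 8 weeks old at the start. After 6 weeks of high-fat feeding (HF), the same diet was kept up for 8 weeks while 3 intraperitoneal injections per week delivered either phosphate-buffered saline (HF-PBS) or homoharringtonine (HF-HHT), a plant alkaloid that inhibits protein synthesis and is used against leukaemia. Both conditions thus share the diet, and no lean group is part of the comparison. Tissue of 3 mice was pooled for each library, and there was 1 library per condition, made from frozen tissue by flow sorting of DAPI-stained nuclei. No test between the conditions was possible: all intervals below are 95% intervals that cover the counting error only, not the difference between mice or between nuclei, and a difference between HF-HHT and HF-PBS cannot be told apart from a difference between 2 library preparations.

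Lymphatic identity rests on the transcription factor Prox1, which together with Nr2f2 and Sox18 turns embryonic venous endothelium into lymphatic endothelium. The receptor Flt4 (VEGFR3), with its co-receptor Nrp2, receives VEGF-C, the main growth signal of these vessels. Blind-ended capillaries take up fluid and are marked by the hyaluronan receptor Lyve1 and the chemokine Ccl21a, which draws dendritic cells and T cells into the vessel. Collecting vessels carry the lymph onward through valves, whose cells use Foxc2, Foxp2, Nfatc1 and Itga9.

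The label was set beside markers that the rule did not use, from lists chosen with earlier results of these data known. The 17 further lymphatic markers summed to 12029 CPM in lymphatic nuclei of the HF-PBS library and 10276 CPM in those of the HF-HHT library, where CPM is a gene's UMIs scaled to 1000000 UMIs of all nuclei of the class together, against 3725 and 3667 CPM in blood endothelium and 1203 and 1048 CPM in the free RNA, the pooled content of barcodes too poor to hold a nucleus. All 17 had at least 1 UMI in lymphatic nuclei of each library, and 9 and 12 of them also had UMIs in blood nuclei of HF-PBS and HF-HHT. Among these, Tshz2 had UMIs in 82.9% and 84.5% of blood nuclei, Nrp2 in 42.9% and 45.1%, and Nr2f2 in 25.7% and 23.2%. Of macrophages, 63.4% and 72.1% had UMIs of Maf and 62.6% and 67.6% of Nrp2. The 14 pan-endothelial markers summed to 4731 and 3870 CPM, against 802 and 549 CPM in free RNA. The 12 blood endothelial markers outside the blood rule summed to 1297 and 1136 CPM in lymphatic nuclei. They summed to 3205 and 4338 CPM in blood endothelium and to 147 and 355 CPM in free RNA. UMIs of these 12 lay in 47 of 49 and 123 of 163 lymphatic nuclei, so blood endothelial genes were lower in the class but not absent. Of the 12, Von Willebrand factor (Vwf), Sox17 and Notch4, which mark blood vessels and arteries, had no UMI in any of the 212 nuclei. The pan-endothelial Mecom had 2 UMIs, both under HHT.

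Of the members, 14 carried markers of a cell class outside the endothelium at or above the same limits (0.3% and 4 UMIs). All 14 were in HF-HHT. Of these, 12 passed for erythroid genes (globins, Slc4a1 and Alas2), and in 9 of the 12 Reln was the sole lymphatic gene of the 4 detected. These 12 nuclei held 1256 of the 1351 erythroid UMIs found in the HF-HHT members. The markers of dividing cells summed to 170 UMIs in HF-HHT members, of which 141 lay in the 14 mixed nuclei. Reln itself had UMIs in 42 of 139 erythroid nuclei of HF-HHT outside the lymphatic class (30.2%, 95% exact interval 22.7 to 38.6), against 0.801% of HF-HHT macrophages. Each result was therefore computed with all 212 members and without the 14, which left 149 members in HF-HHT. Blood endothelial markers did not count as another class here. The 4 genes of the blood rule passed the same limits in 6 HF-PBS and 10 HF-HHT members, none of them among the 14. In blood endothelium 5 nuclei of HF-PBS and 12 of HF-HHT were mixed by the same limits. No lymphatic barcode was shared between the libraries.

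**Figure D1:**
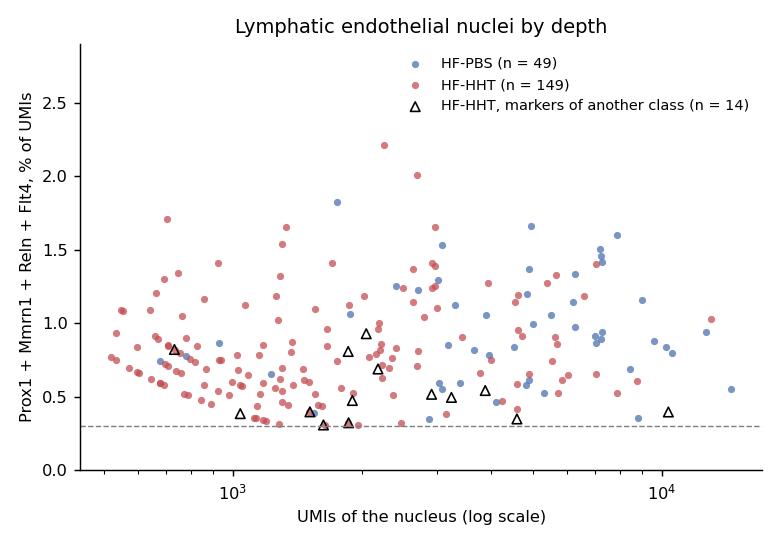
Each point is 1 lymphatic nucleus, with its UMIs on a log axis and the summed share of Prox1, Mmrn1, Reln and Flt4 in percent of its UMIs on the vertical axis. The dashed line is the 0.3% limit of the rule and open triangles mark the 14 nuclei with markers of a class outside the endothelium. The 49 HF-PBS nuclei have a median of 4891 UMIs and the 163 HF-HHT nuclei one of 1507.

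The members of both libraries sat at different depths. HF-PBS members had a median of 4891 UMIs and 2103 genes (range 675 to 14538 UMIs), HF-HHT members one of 1507 UMIs and 948 genes (range 521 to 13017 UMIs), while the medians of all kept nuclei were 4073 and 4007 UMIs and those of blood endothelium 2216 and 2204 UMIs. Lymphatic nuclei summed to 259782 UMIs for HF-PBS and 360953 for HF-HHT, of 76197757 and 73313558 UMIs in the libraries. The estimated part of free RNA in them was 8.65% with PBS and 16.8% with HHT. The summed rule genes had a median of 41 UMIs per member in HF-PBS and 10 in HF-HHT. At the limit of 4 UMIs stood 0 and 19 members, and just outside it, at 3 UMIs, 0 and 21 nuclei. All 4 rule genes were detected in 40 of 49 members of HF-PBS (81.6%) and in 82 of 163 of HF-HHT (50.3%).

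Lymphatic nuclei took a larger share of the HF-HHT library. Of all kept nuclei they made up 0.569% under PBS (exact interval 0.421 to 0.751) and 2.07% under HHT (1.77 to 2.41), a ratio of 3.65, or 1.87 on the log2 scale (1.41 to 2.33). Without the 14 mixed nuclei the HF-HHT share was 1.90% and the ratio 3.33. Blood endothelium moved the same way, from 0.406% to 1.81% (log2 ratio 2.15, 1.62 to 2.69). The lymphatic part of all endothelial nuclei was 58.3% with PBS (47.1 to 69.0) and 53.4% with HHT (47.7 to 59.1), and the intervals overlap. A share of sorted nuclei is relative to all other nuclei of the library, so more lymphatic nuclei and fewer of other classes cannot be told apart.

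The larger lymphatic share came with nuclei of low depth. Among nuclei with 500 to 1000 UMIs, mixed nuclei left out, 3 of 753 HF-PBS nuclei (0.398%) and 46 of 861 HF-HHT nuclei (5.34%) were lymphatic, a log2 ratio of 3.75 (2.07 to 5.42). From 1000 to 2000 UMIs the counts were 4 of 1210 and 48 of 1106 (4.34%), with a log2 ratio of 3.71 (2.25 to 5.18). From 2000 to 4000 UMIs they were 13 of 2279 (0.570%) and 33 of 1957 (1.69%), with a log2 ratio of 1.56 (0.64 to 2.49). At 4000 UMIs or more the order was the other way with an interval that includes equality: 29 of 4376 (0.663%) and 22 of 3935 (0.559%), a log2 ratio of -0.25 (-1.04 to 0.55). Blood endothelium had its log2 ratios at 1.61, 2.22, 2.31 and 2.52 over the same 4 depth classes. With 2000 UMIs or more, all members counted, the lymphatic share was 0.631% against 1.05%, which left a log2 ratio of 0.74 (0.17 to 1.30). The part of nucleus quality in the share was not tested.

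**Figure D2:**
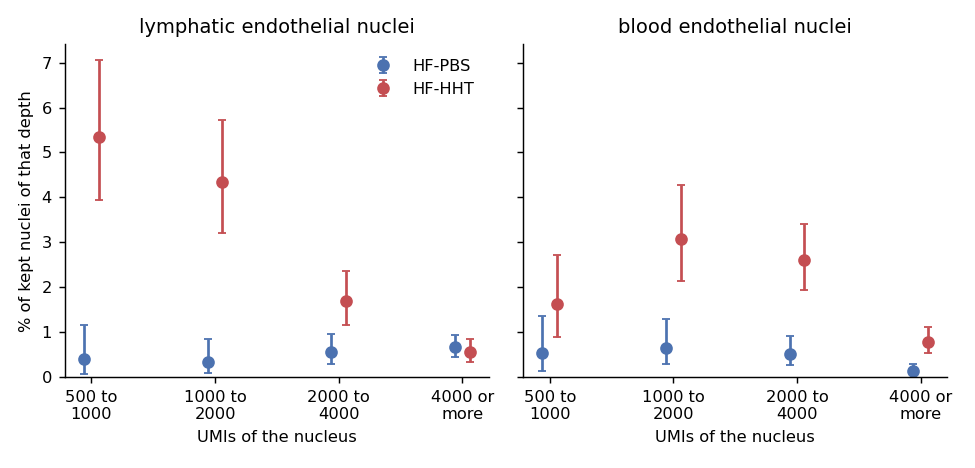
Share of lymphatic (left) and blood endothelial (right) nuclei, in percent of the kept nuclei of the same depth class, with 95% exact intervals and mixed nuclei left out. The lymphatic share of HF-HHT is 5.34% at 500 to 1000 UMIs and 0.559% at 4000 UMIs or more, while that of HF-PBS lies between 0.331% and 0.663% in all 4 classes.

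What set lymphatic apart from blood endothelium was read in each library by itself, and a gene was called where the CPM differed at least 2-fold in the same direction in both libraries with both intervals leaving out equality. Of 3573 genes with at least 20 counts in each library, 237 (6.63%) were called higher and 195 (5.46%) lower in lymphatic nuclei, and without mixed nuclei 261 (7.83%) and 176 (5.28%) of 3335. The rule forced blood endothelium to lack the 4 lymphatic genes, and the genes below were chosen from the same nuclei, so their values describe the class and are no test of it. Of the 17 lymphatic markers outside the rule 13 were measured, 11 were called higher and none lower, with median log2 ratios of 2.76 and 5.23, against 0.08 and 0.09 over all genes.

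The 12 higher genes named were of varied role, with Sema3d at their head. Sema3d, a secreted semaphorin that steers vessels and axons, had 401 UMIs in lymphatic and 0 in blood nuclei of HF-PBS, then 225 and 1 in those of HF-HHT. With the 0 set to a floor of 3 counts its log2 ratio was at least 5.92 in HF-PBS. Sema3a, a semaphorin that takes part in lymphatic valve formation, had 417 and 5 UMIs with PBS and 439 and 6 with HHT, for log2 ratios of 5.24 and 6.38. Lyve1 had 135 and 0, then 90 and 1 UMIs. Ccl21a had 118 and 0, then 99 and 0 UMIs, and is uncertain because near-identical copies of this chemokine gene lie in the mouse genome. The polarity protein gene Pard6g gave 179 and 0, then 256 and 0 UMIs. Thus blood nuclei held at most 6 UMIs of any of these 5 genes in either library.

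Among the others of the 12, Scn3a, a voltage-gated sodium channel known from neurons, had 385 and 1 UMIs with PBS and 118 and 0 with HHT. Fgf12, an intracellular fibroblast growth factor relative that binds sodium channels, had 230 and 0, then 138 and 3. Srgap3 and Sh3gl3, which bend membranes and shape the cytoskeleton, had 262 and 2 and 129 and 0 UMIs in HF-PBS. The endocytic adaptor Ston2 (107 and 0, then 200 and 0), the adaptor Apba2 (113 and 0, then 140 and 0) and the matrix protein Abi3bp (167 and 0, then 286 and 18) completed the set. In GRCm38 coordinates Sema3d lies on chromosome 5 from 12383385 to 12588948, Scn3a on chromosome 2 from 65457118 to 65567627, and Lyve1 on chromosome 7 from 110850607 to 110863239.

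Transcription factors of the lymphatic programme were split, and calls here are read beside the 6.63% higher and 5.46% lower of all genes. Of 11 measured, 5 were called higher: Maf (log2 ratios 3.56 and 4.03), Foxp2 (5.34 and 6.73), Nfatc1 (2.83 and 2.08), Tbx1 (at least 2.22, then 5.58) and Nr2f2 (1.49 and 1.44). Those shared by all endothelium were not called, among them Erg (-0.44 and -0.43) and Foxp1 (-0.32 and -0.50). Among genes of immune cell traffic 5 of 9 measured were called higher, including the survival cytokine Il7 with 54 and 0 UMIs with PBS and 90 and 2 with HHT, the scavenger receptors Stab1 (1.95 and 2.32) and Stab2, and the mannose receptor Mrc1 (1.66 and 2.09). S1pr1, the receptor for sphingosine 1-phosphate, was called lower (-1.77 and -1.96). Macrophages also use Mrc1 and Stab1. Macrophage markers summed to 289 and 169 CPM in lymphatic nuclei against 3692 and 1199 CPM in free RNA, Cd68 had no UMI in them, and the part of macrophage RNA in these 2 genes was not tested.

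The 12 lower genes named were led by genes of blood vessels. Mecom, a transcription factor of arterial endothelium, had 0 UMIs in lymphatic and 296 in blood nuclei of HF-PBS, and 2 and 1877 in HF-HHT, for log2 ratios of -7.77 or lower and -9.69. Vwf, the clotting glycoprotein stored by blood endothelium, had 0 and 46 UMIs, then 0 and 423. The actin-binding Ablim1 had 45 and 598 UMIs with PBS and 53 and 2504 with HHT (log2 ratios -4.88 and -5.37). The transcription regulators Zfp366 (0 and 72, 0 and 165 UMIs) and Dach1 (1 and 65, 9 and 433) and the potassium channel Kcnc2 (0 and 59, 5 and 424) stood the same way, as did Ccdc85a, Kirrel3, Samd12, Mcf2l, Tspan7 and Myrip.

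Some lipid genes differed between the endothelial classes too. Of 14 measured lipid genes 4 were called lower and 1 higher in lymphatic nuclei, beside 5.46% lower and 6.63% higher of all genes. The fatty acid receptor Cd36 had log2 ratios of -2.59 and -3.56, the fatty acid carrier Fabp4 -4.18 and -2.55, the HDL receptor Scarb1 -4.87 and -5.81, and the nuclear receptor Pparg -1.16 and -1.73. The cholesterol exporter Abca1 was called higher (1.60 and 1.13). In the vessel wall group 13 genes were measured, of which 3 were called higher and 3 lower. The higher ones were the laminin chains Lama4 (3.69 and 2.59) and Lamb1 (1.90 and 1.62) and the inhibitor Timp2 (1.23 and 1.62). Among the lower ones were the perlecan gene Hspg2 (-2.06 and -1.72) and Sparc (-2.98 and -2.28).

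**Figure D3:**
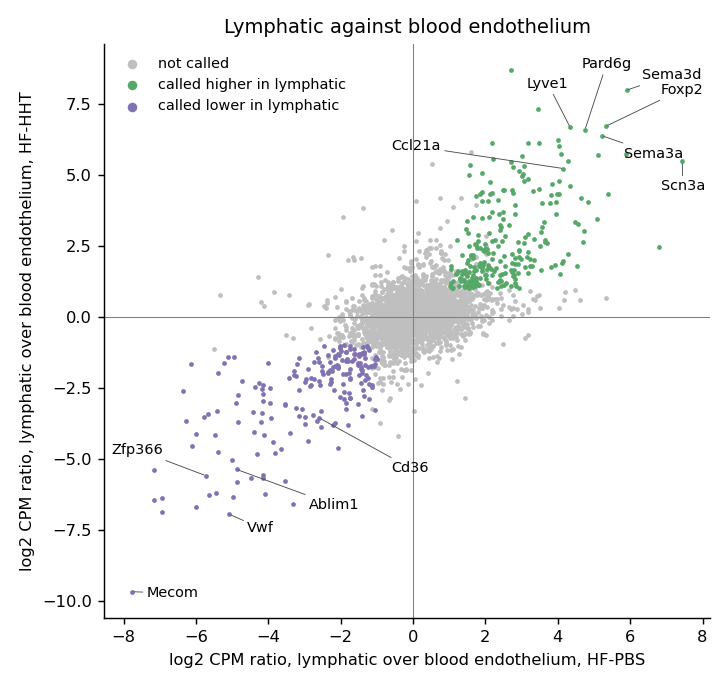
Each point is 1 of 3573 genes, with the log2 CPM ratio of lymphatic over blood endothelium in HF-PBS on the horizontal and in HF-HHT on the vertical axis, counts of 0 set to 3. The 237 genes called higher are green and the 195 called lower are purple, with Sema3d and Mecom near the opposite ends.

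The levels of the 4 rule genes describe the nuclei they chose and are given with no comparison. Prox1 had 386 UMIs under PBS and 379 under HHT (1486 and 1050 CPM), Mmrn1 655 and 622 (2521 and 1723 CPM), Reln 1231 and 1448 (4739 and 4012 CPM), and Flt4 212 and 511 (816 and 1416 CPM).

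A gene was called between conditions where the CPM of the lymphatic nuclei differed at least 2-fold and the interval left out equality, among the 5090 genes whose counts summed to 20 or more. By this, 425 (8.35%) were called higher and 216 (4.24%) lower in HF-HHT. Without mixed nuclei these were 335 (6.91%) and 196 (4.04%) of 4848 genes, and 282 of the higher and 174 of the lower calls were shared by both settings. The median log2 ratio over all genes was 0.07. The direction of the balance depended on scaling: with TMM factors 364 were called higher and 273 lower, and with median-of-ratios factors 318 and 331. These factors moved every log2 ratio by -0.08 and -0.16, and under both Angpt1, Klf4, Spns2 and Tgfb1, described below, were no longer called, nor was Ackr2 under the second. Numbers of calls are read below against the percentages given here.

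The 10 higher genes found first by the naming rule were red cell genes. They included the globins Hba-a2 (0 UMIs, then 296, in HF-PBS and HF-HHT members) and Hbb-bt (0 and 189), the anion exchanger Slc4a1 (0 and 107), the membrane skeleton genes Sptb (0 and 58) and Ank1 (3 and 106), the surface proteins Kel (0 and 51) and Rhag (0 and 37), Slc25a21 (0 and 104) and carbonic anhydrase Car2 (0 and 48). The erythroid markers summed to 3743 CPM in all HF-HHT members, to 286 CPM in the 149 members without mixed nuclei, to 1761 CPM in free RNA and to 3.85 CPM in HF-PBS members. The Hba copies are near-identical, so their split is uncertain. By the same naming rule applied without the 14 mixed nuclei, a step taken after these values were seen, none of the 10 higher genes was a red cell gene. The genes below are from that list, with all members counted.

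Genes of the interferon-inducible GTPases led. Iigp1, which attacks the vacuole of intracellular parasites, had 53 and then 477 UMIs, which is 204 CPM (153 to 267) in HF-PBS and 1322 CPM (1206 to 1446) with HHT, and these intervals lie far apart. Its log2 ratio was 2.70 (2.28 to 3.13), it was detected in 11 of 49 and 75 of 163 nuclei, and 1 HF-PBS nucleus held 37.7% of its HF-PBS UMIs. The gene lies on chromosome 18 from 60376027 to 60392634. Gbp4, a guanylate-binding protein, had 13 and 140 UMIs for a log2 ratio of 2.95 (2.13 to 3.90), and 1 nucleus held 38.5% of its HF-PBS UMIs. Gbp9 had 1 and 36 UMIs; it overlaps Gbp4 on chromosome 5 (105077630 to 105139539 and 105115767 to 105139586), so the split of reads between both is uncertain.

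The remaining higher genes had other roles. Nrxn3, a synaptic adhesion protein also found in vessels, had 6 and 61 UMIs. The inositol phosphate kinase Itpk1 had 9 and 69 UMIs. Slco2a1, which carries prostaglandins into the cell, had 1 and 34. Without mixed nuclei its HF-HHT UMIs lay in 13 of 149 nuclei, with 36.7% in 1 of them. The ubiquitin ligase Rnf220 had 14 and 92, Afap1l2 had 3 and 34, the nitric oxide receptor subunit Gucy1a1 had 5 and 39, and the myosin light chain kinase Mylk had 17 and 92. The Mylk level was thus 65.4 CPM with PBS and 255 CPM with HHT, and 1 nucleus held 41.2% of its HF-PBS UMIs.

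The interferon response list moved upward as a group. Of its 14 genes 9 were measured, 7 were called higher and none lower, with a median log2 ratio of 1.90 against 0.07 over all genes tested. Stat2, a transcription factor of the type I interferon response, had 10 UMIs with PBS and 52 with HHT (log2 ratio 1.90, 0.91 to 3.05), and Irf1, an interferon-induced transcription factor, had 3 and 30 (2.85, 1.16 to 5.20). The GTPases Gbp2 and Gbp7 had 4 and 45 and 8 and 66 UMIs (3.02 and 2.57), and counts of Gbp family members are uncertain where their sequences are alike. Parp14 had 24 and 85 UMIs (1.35), and the ubiquitin ligase Rnf213 had 29 and 109 (1.44).

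Summed over the list, the level was 508 CPM with PBS (425 to 603) and 1629 CPM with HHT (1500 to 1766). A UMI of any list gene was found in 34 of 49 (69.4%) and 117 of 163 nuclei (71.8%), and no nucleus held more than 12.1% of the list's UMIs in HF-PBS or 7.99% in HF-HHT. In nuclei with 2000 UMIs or more, mixed ones left out, the sums were 502 and 1856 CPM. The same list summed to 750 (602 to 924) and 1116 CPM (1016 to 1223) in blood endothelium, to 426 and 1838 CPM in macrophages, to 450 and 1170 CPM in all kept nuclei outside the endothelium, and to 495 and 1502 CPM in free RNA. The list was thus higher in HF-HHT in every one of these classes and in the free RNA. With the estimated free RNA subtracted, the list's median log2 ratio was 2.19 and 7 of 8 measured genes were called higher. With each nucleus thinned to 500 UMIs, 3 list genes had enough counts, their median was 1.07 and none was called.

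**Figure D4:**
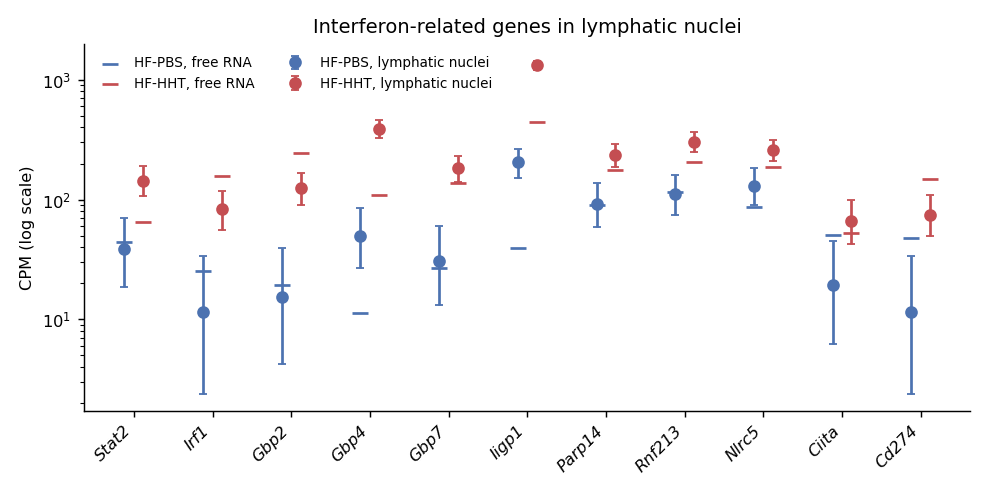
Level of 11 interferon-related genes in CPM on a log axis, in lymphatic nuclei of HF-PBS (blue points) and HF-HHT (red points) with 95% exact Poisson intervals, and in the free RNA of each library (dashes). Iigp1 is at 204 CPM for HF-PBS and 1322 CPM for HF-HHT nuclei, and Irf1, Gbp2 and Cd274 lie below the HF-HHT free RNA level.

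Promoters of the called interferon genes are shown because 2 DNA words are known to bind the factors on this list: the core of the interferon-stimulated response element (ISRE), searched as GAAA, any 2 bases and GAAA, and the gamma-activated site (GAS), searched as TTC, any 3 bases and GAA. Both were searched on both strands in the 250 bases before the start of each RefSeq gene (GRCm38.p6), and overlapping matches were counted as they occurred. The ISRE core was found in 2.98% and GAS in 7.02% of 32851 promoters. Of the 14 list genes 12 had a promoter entry, of which 6 held the ISRE core and 3 held GAS. Among the called genes, Stat2, Gbp2 and Gbp7 held the ISRE core, and Irf1 and Gbp7 held GAS. The other holders were not called. Without mixed nuclei the ISRE holders Ifit1, Ifit3 and Isg15 had 1 and 1, 0 and 2, and 0 and 2 UMIs in HF-PBS and HF-HHT. The GAS holder Ifit2 had 10 and 6. In the windows of 30 bases below, on the strand of the gene, capitals mark the match, and the ISRE core lies on the opposite strand and so reads as its reverse complement.
Gbp2, ISRE core, chr3:142620594-142620623, plus strand: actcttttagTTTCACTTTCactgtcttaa
Gbp7, ISRE core, chr3:142530273-142530302, plus strand: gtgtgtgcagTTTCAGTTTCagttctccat
Stat2, ISRE core, chr10:128270266-128270295, plus strand: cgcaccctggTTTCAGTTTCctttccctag
Gbp7, GAS, chr3:142530220-142530249, plus strand: tccgttttctTTCCAGGAAaagcagaagct
Irf1, GAS, chr11:53769914-53769943, plus strand: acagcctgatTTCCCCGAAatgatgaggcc
Between the end of the match and the start of the gene lay 49 bases in Gbp2, 43 and 97 in Gbp7, 212 in Stat2 and 81 in Irf1. Rnf213, which was also called, held neither word in its window.

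Genes of antigen presentation went with the interferon genes in part. Of 9 measured, 2 were called higher and none lower: Ciita, the switch of class II genes (5 and 24 UMIs), and the class II chain H2-Aa (3 and 19 UMIs). Nlrc5, the switch of class I genes, had 34 and 93 UMIs (log2 ratio 0.98, 0.40 to 1.59), just under the 2-fold limit. The class I genes H2-K1 (89 and 147 UMIs) and B2m (65 and 109) had log2 ratios of 0.25 and 0.27, which turned to -0.77 and -0.71 with the estimated free RNA subtracted. The list summed to 993 and 1482 CPM in members of HF-PBS and HF-HHT and to 3071 and 5184 CPM in free RNA, and its median log2 ratio of 0.68 became -0.17 under the same subtraction, which left H2-Aa under the count minimum.

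Growth factor signaling did not move as one. Of 14 measured genes of VEGF-C and angiopoietin signaling, 3 were called higher and 1 lower. The co-receptor Nrp2 had 158 UMIs with PBS and 523 with HHT (608 and 1449 CPM, log2 ratio 1.25, 0.99 to 1.52), with UMIs in 40 of 49 and 114 of 163 nuclei. Svep1, an extracellular protein needed for lymphatic remodelling in mouse and zebrafish, had 7 and 55 UMIs (2.50, 1.36 to 3.88), and fell under the count minimum once free RNA was subtracted. Angpt1, the ligand of the Tek receptor, had 6 and 22 UMIs, but all 6 of HF-PBS lay in 1 nucleus, and without mixed nuclei it was not called. Its relative Angpt2, which shapes lymphatic junctions and valves, was called lower with 111 and 30 UMIs (427 and 83.1 CPM), a log2 ratio of -2.36. The growth factor receptor Kdr had 58 and 125 UMIs, with a log2 ratio of 0.63 (0.17 to 1.11).

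Of 19 measured capillary and valve genes 3 were called in both directions together, beside 8.35% higher and 4.24% lower of all genes. So small a number is not read as more or fewer calls than over all genes. Of 6 measured capillary genes 1 was called, Lyve1, lower, with 135 and 90 UMIs (520 and 249 CPM; -1.06, -1.46 to -0.66). This call was lost without mixed nuclei, where the log2 ratio was -0.91. Pdpn had 45 and 68 UMIs (0.12, -0.44 to 0.70) and Pard6g 179 and 256 (0.04, -0.24 to 0.33), both with intervals that include equality. In the valve group of 13 measured genes Klf4, a flow-induced transcription factor, was called higher (7 and 24 UMIs), and fibronectin Fn1 lower (74 and 39 UMIs; -1.40). Foxp2 had 179 and 186 UMIs, Nfatc1 63 and 119, and Itga9 200 and 224, and none of these was called. None of 13 measured lymphatic transcription factors was called in either direction (median -0.19).

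Secreted and surface proteins that guide immune cells were divided. Of 13 measured, 3 were called higher and 2 lower. The chemokine scavenger Ackr2 had 18 and 54 UMIs (1.11, 0.32 to 1.97), and Spns2, which exports sphingosine 1-phosphate into lymph, had 23 and 64, with an interval of 0.29 to 1.76. The checkpoint ligand Cd274 (PD-L1) had 3 and 27 UMIs, the 3 of HF-PBS all in 1 nucleus. The adhesion molecules Alcam (67 and 28 UMIs; -1.73, -2.42 to -1.08) and Jam3 (28 and 12; -1.70, -2.81 to -0.68) were called lower. Ccl21a had 118 and 99 UMIs (-0.73, -1.13 to -0.33), short of the 2-fold limit.

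The lower gene with the most counts among those named was an adhesion molecule. Cdh13 (T-cadherin), a receptor of adiponectin that lacks an intracellular part, had 852 UMIs with PBS and 193 with HHT (3280 CPM, 3063 to 3508, and 535 CPM, 462 to 616), a log2 ratio of -2.62 (-2.85 to -2.39). It was detected in 46 of 49 and 57 of 163 nuclei, and with nuclei thinned to 500 UMIs and mixed ones left out in 69.4% and 19.5%, against 0.372% and 0.443% of macrophages. Before thinning these were 93.9% and 36.9% of lymphatic nuclei and 1.79% and 3.01% of macrophages. In nuclei with 2000 UMIs or more it stood at 3255 and 638 CPM. The gene spans chromosome 8 from 118283733 to 119324921. Kcnma1, a calcium-activated potassium channel and first by the naming rule, had 53 and 6 UMIs, but its HF-PBS UMIs lay in 5 nuclei with 41.5% in 1 of them.

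Further lower genes act in the matrix, ion transport and cyclic AMP signaling. Tenascin C (Tnc) had 110 and 20 UMIs (-2.93), found in 24 of 49 and 10 of 163 nuclei. Scn3a had 385 and 118 UMIs (-2.18, -2.49 to -1.88), and it was seen in 34 of 49 and 27 of 163 nuclei. The sodium-proton exchanger Slc9a9 had 417 and 128 UMIs (-2.18), and the phosphodiesterase Pde4d 397 and 146 (-1.92, -2.20 to -1.64). Lhfp had 226 and 58 UMIs (-2.44), Prune2 97 and 19 (-2.83), and the calcium sensor Ncald 40 and 5 (-3.47). The 2 genes that marked the class against blood endothelium most strongly, Sema3d and Scn3a, were thus both lower in HF-HHT, Sema3d with 401 and 225 UMIs (-1.31, -1.55 to -1.07).

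Of 14 measured genes of Notch and transforming growth factor β (TGF-β) signaling, 5 were called lower and 1 higher, against 4.24% and 8.35% of all genes, and the other 8 were not called. Without mixed nuclei 5 were called lower and 2 higher. The ligand Tgfb2 had 96 and 40 UMIs (-1.74, -2.31 to -1.19), and the receptor Tgfbr1 34 and 21 (-1.17, -2.03 to -0.34). The signal carriers Smad3 (36 and 21, log2 ratio -1.25) and Smad1 (414 and 247, log2 ratio -1.22, -1.45 to -0.99) were also called lower. So was Rbpj, the DNA-binding partner of Notch (95 and 64, log2 ratio -1.04), although 46.3% of its HF-PBS UMIs lay in 1 nucleus. The ligand Tgfb1 was called higher with 22 and 62 UMIs (1.02, 0.30 to 1.79). The list's median was -0.31.

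Calls among wall and adhesion genes were read against the 8.35% higher and 4.24% lower of all genes. With all members counted, each list below had more lower than higher calls, whereas all genes had more higher calls. In basement membrane and matrix 2 of 15 measured genes were called, both lower: Lamc1 (182 and 116 UMIs, log2 ratio -1.12) and Fn1. Without mixed nuclei 3 of the 15 were called lower and 0 higher. Of 20 measured genes of integrins, focal adhesion and actin, 1 was called higher, Mylk, and 2 lower, the collagen receptor chain Itga1 (102 and 67; -1.08) and vinculin, Vcl (70 and 46; -1.08). The calls of Itga1 and Vcl were lost without mixed nuclei. Of 15 measured junction genes 1 was called, Jam3. The endothelial cadherin Cdh5 had 40 and 59 UMIs (0.09, -0.52 to 0.70) and Pecam1 130 and 201 (0.15, -0.17 to 0.48).

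Lipid genes gave calls in both directions. Of 14 measured, 2 were called higher and 1 lower. Fabp4 had 23 UMIs with PBS and 124 with HHT (88.5 and 344 CPM; 1.96, 1.31 to 2.67), and the fatty acid transporter Slc27a1 had 8 and 35 (1.65). Cd36 was lower with 189 and 130 UMIs (728 and 360 CPM, log2 ratio -1.01, -1.35 to -0.68). This call is at the 2-fold limit, and 23.3% of the HF-PBS UMIs of Cd36 lay in 1 nucleus. Adipocyte markers, which do not include Fabp4 although adipocytes are rich in it, summed to 92.4 and 407 CPM in the lymphatic nuclei and to 549 and 2383 CPM in free RNA, and no adipocyte marker of the 6 was at 0 in either library. With the estimated free RNA subtracted, Fabp4 and Slc27a1 fell under the count minimum, and none of the 5 lipid genes still measured was called higher.

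Stress and hormone lists differed in their calls, from none of the chaperones to 3 of 6 senescence genes with both directions and all members counted. Hspa5 (BiP), the endoplasmic reticulum chaperone that the study proposes as the target of HHT, had 16 UMIs with PBS and 42 with HHT (61.6 and 116 CPM; 0.92, 0.06 to 1.85), under the 2-fold limit, and none of 10 measured chaperone and stress genes was called. Of 6 measured senescence and arrest genes 2 were called higher and 1 lower: Igfbp5 (7 and 47 UMIs; 2.27), the nuclear lamin Lmnb1 (4 and 23) and Igfbp7 (138 and 63; -1.61, -2.06 to -1.17). Lmnb1, which dividing cells make in large amounts, fell under the count minimum without mixed nuclei. In that setting 1 of 5 measured senescence and arrest genes was called higher and 1 lower. Of 10 measured glucocorticoid response genes 2 were called lower, Zbtb16 (235 and 158; -1.05) and Dusp1 (30 and 17; -1.29), and Fkbp5 had 226 and 159 UMIs (-0.98, -1.28 to -0.68). The glucocorticoid list summed to 3199 and 1997 CPM in lymphatic nuclei, 3921 and 1967 CPM in blood endothelium, 4513 and 2534 CPM in all kept nuclei outside the endothelium, and 3902 and 1962 CPM in free RNA. The call of Zbtb16 was lost without mixed nuclei. Of the 10 immediate-early genes 1 was measured.

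Whether lymphatic and blood endothelium differed in their response was read as the log2 ratio HF-HHT over HF-PBS in lymphatic nuclei less that in blood nuclei, called where it was at least 1 in size and its interval left out 0. Of 4118 genes, 374 (9.08%) were called higher and 264 (6.41%) lower in lymphatic nuclei, and without mixed nuclei 303 (7.97%) and 193 (5.08%) of 3801. Balance again depended on scaling, with 252 higher and 389 lower under TMM factors and 240 and 414 under median-of-ratios factors. The estimated part of free RNA differed between the classes. It was 8.65% with PBS and 16.8% with HHT in lymphatic nuclei, and 20.1% and 15.8% in blood nuclei. With free RNA subtracted, 333 of 3338 genes were called higher and 306 lower. The part of free RNA in the differences of single genes was not tested.

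Several genes of the interferon paragraphs were called higher in this difference, and Cdh13 and Pde4d were called lower. The difference was 1.42 for Iigp1 (0.68 to 2.16), whose log2 ratio in blood nuclei was 1.29, and 2.29 for Gbp4 (1.13 to 3.45), with 0.66 in blood nuclei. Gbp7, Parp14 and Rnf213 were called higher in the same sense, with log2 ratios in blood nuclei of 0.90, 0.27 and 0.41, whereas for Gbp2 the ratio was 3.02 in lymphatic and 3.55 in blood nuclei and was not called. Cdh13 had a difference of -2.25 (-2.51 to -1.99), with -0.36 in blood nuclei. Pde4d had -1.53 (-2.05 to -1.02).

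Calcrl, the receptor of adrenomedullin, which supports lymphatic growth, had opposite directions in the endothelial classes. Lymphatic nuclei had 450 UMIs of it with PBS and 289 with HHT (1732 and 801 CPM; -1.11, -1.33 to -0.90), and in blood nuclei 31 and 274 UMIs (1.33, 0.80 to 1.92). The collagen IV chains Col4a1 and Col4a2 had log2 ratios of -0.28 and -0.26 in lymphatic and of -1.47 and -1.90 in blood nuclei, and both were called higher in the difference. Differences of Svep1, Mylk, Angpt2, Tgfbr1 and Alcam were called with all nuclei and were not without mixed nuclei. They thus rest in part on the 14 lymphatic and 17 blood nuclei with markers of a class outside the endothelium.

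**Figure D5:**
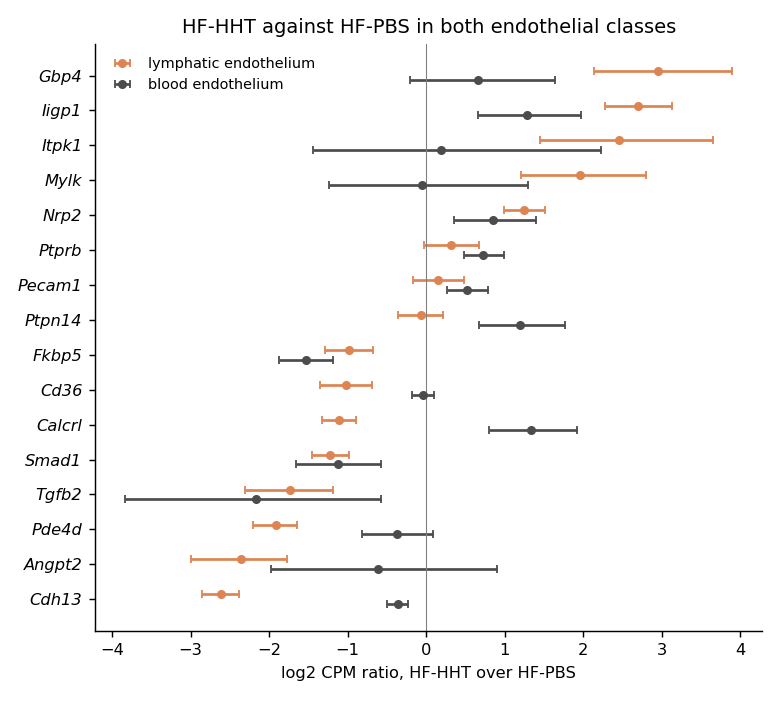
The log2 CPM ratio of HF-HHT over HF-PBS with 95% counting intervals for 16 genes, in lymphatic (orange) and blood endothelium (grey). Cdh13 lies at -2.62 and -0.36, Calcrl at -1.11 and 1.33, and Iigp1 at 2.70 and 1.29.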

How the data were processed

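Nuclei of epididymal WAT were profiled with the 10x Genomics 3′ v3.1 assay, 1 library per condition, each from 3 pooled mice. The deposited files hold raw UMI counts per gene and barcode, made by the authors with Cell Ranger 5.0.0 on mm10 (per the labels), with no normalization and before any selection of barcodes. No per-sample column was left unused (0).

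Barcodes were kept with at least 500 UMIs, more than 400 genes and under 0.5% mitochondrial UMIs. The members, the gene lists and the comparison with blood endothelium were chosen with earlier results of these data known. Counts were summed per class and library and given as CPM. Shares have exact Clopper-Pearson intervals, CPM exact Poisson intervals, CPM ratios exact conditional binomial intervals, and ratios of shares and differences of log2 ratios log-normal intervals, all at 95% and for counting error only. Counts of 0 were set to a floor of 3 counts over the class in a library. A difference was called at 2-fold with an interval that leaves out equality, among genes with at least 20 counts.

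Named against blood endothelium were the 12 higher and 12 lower called genes with the interval bound farthest from 0. Named between conditions were the 10 higher and 10 lower with at least 30 counts and a CPM in the higher library at least 2 times that of free RNA, and from each list the called members and up to 6 with most counts. Predicted genes were not named, and a few genes that met these rules are not reported here by name. All 5094 gene IDs with at least 20 counts in lymphatic nuclei matched the GENCODE M21 annotation of GRCm38. Free RNA was the summed content of barcodes ranked 45000 to 90000 by UMIs. Doublets were scored with Scrublet in scanpy 1.11.5: 594 and 494 nuclei with the highest scores included 2 and 3 lymphatic ones, which were left in, and its automatic limit marked 2 and 230. Python 3.11.15, numpy 2.4.6, scipy 1.17.1, pandas 2.3.3, R 4.3.3 with edgeR 4.0.16 (TMM factors only) and matplotlib 3.10.9 were used, and the interval code was tested on simulated data. Promoter sequences are from RefSeq. Alternatives covered depth, mitochondrial and marker limits, count minimums, scaling, free RNA, doublets, mixed nuclei and thinning to 500 UMIs.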

Additional observations from a re-analysis of the deposited data

Results flagged for a closer look

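Calcrl differed in direction between the endothelial classes: without mixed nuclei its log2 ratio of HF-HHT over HF-PBS was -1.04 in lymphatic nuclei, while it was above 0 in blood endothelium. With 1 library per condition this difference was not tested.

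Reln, which marks the lymphatic class, was detected in 30.2% of the HF-HHT erythroid nuclei, a class that enters no comparison of conditions, at 325 CPM against 27.3 CPM in the free RNA. The same class of HF-PBS held 1 nucleus, without a Reln UMI, so the conditions could not be set side by side.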

How the results depend on the processing

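No called value changed its direction under the 16 alternatives. No paired analysis was possible because each condition had 1 library, and for the same reason no replicate could be left out. The lymphatic share of HF-HHT was 1.66% with at least 1000 UMIs per nucleus, 1.05% with at least 2000 UMIs (a limit added after seeing the data), 1.40% with a marker sum of at least 0.6%, and 2.49% with one of 0.2% and 3 UMIs. At 2000 UMIs the log2 ratio of the shares was 0.74 and the lymphatic part of HF-HHT endothelium 41.3%, which was 43.7% at a marker sum of 0.6%. Calls against blood endothelium (432 in all) were 268 with at least 50 counts and 80 with nuclei thinned to 500 UMIs. Calls between conditions (641) were 284 with at least 50 counts, 975 with no minimum and 171 when thinned, and calls of the difference between the classes (638) were 343, 1029 and 87. Higher calls between conditions were 66.3% of all, but 54.2% with at least 50 counts, 57.1% with TMM, 49.0% with median-of-ratios factors and 40.9% when thinned, while those of the difference were 58.6%, 47.2%, 39.3%, 36.7% and 34.5% under the same settings, and 70.2% with no minimum. Fewer genes pass a higher minimum or thinning, which lowers these counts by construction. For the other changes the cause was not tested. Of 8257 further values for single genes and lists, 229 moved by more than their counting interval, most of them with thinned nuclei. Precision is limited by the HF-PBS library, with 49 lymphatic nuclei of 259782 UMIs in all and 35 blood endothelial nuclei of 117317 UMIs.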
